A study of Mus musculus with 12 samples.

Results

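The clustered protocadherin genes were taken as every gene symbol made of Pcdha, Pcdhb or Pcdhg with a subfamily letter where there is one and a number, which gave 58 of the 24421 genes in the count table. The alpha cluster held 14 of them, the beta cluster 22 and the gamma cluster 22. RNA-seq libraries were made from mES cells, which are mouse embryonic stem cells, of strain B6 with a dTag knock-in at Brg1, grown with 2i and LIF. The tag is a degron fused to BRG1, the main ATPase of the mSWI/SNF chromatin remodelling complex in these cells, and the small molecule dTAG13 sends the tagged protein to the proteasome. Cells received 0.3, 1, 3, 10 or 100 nM dTAG13 for 24 h, or 0 nM dTAG13, which the study describes as DMSO, the vehicle (the labels name no treatment), with 2 libraries per condition and 12 in all. All 6 conditions carried the knock-in, and untagged cells were not analysed here. The study picked single-cell colonies to make its lines and does not state how many the libraries came from. The study's legends describe the RNA-seq data as coming from independent experiments.

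Clustered protocadherins are cadherin-like adhesion proteins of the cell surface, best known from neurons, where each cell uses its own combination of isoforms and matching isoforms on sister neurites lead to self-avoidance. In the alpha and gamma clusters each variable exon has its own promoter and is spliced to exons shared by the whole cluster, while each beta gene is a complete coding exon of its own. Promoter choice is known to depend on DNA methylation, CTCF and cohesin, and the C-type genes at the ends of the alpha and gamma clusters are regulated apart from the others.

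All 58 genes lay on the plus strand of mouse chromosome 18 (mm10), with the alpha genes between 36930285 and 37187660, the beta genes between 37264998 and 37521419 and the gamma genes between 37661945 and 37841872. The 14 alpha genes shared 3 constant exons of 59, 89 and 2715 bases. The 22 gamma genes shared 3 constant exons of 59, 89 and 1970 bases with each other and with 3 read-through gene models, Gm37013, Gm38666 and Pcdha7-g. A read pair that lay on exons of more than 1 gene was not counted, so each alpha and gamma gene was measured only on the exon bases that belonged to no other gene, 45.1 to 47.3% of the annotated length in the alpha genes that had any and 52.8 to 58.3% in the gamma genes. Beta genes were measured over their whole exon. Pcdha4, Pcdha6 and Pcdha7 had no base of their own because their variable exons lay under the read-through models, and they had 0 counts in all 12 libraries, which is a limit of the counting and says nothing of their expression. The other 55 genes had at least 1 count and were tested. Levels between genes are therefore compared as RPKM over own exon bases only, that is, read pairs per kilobase of those bases scaled to the library's counts after TMM.

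Libraries held 4663484 to 6375582 counts with a median of 5956670, and a count of 3, taken as the limit of detection, corresponded to 0.468 to 0.596 CPM, counts scaled to the library total after TMM. The library with the fewest counts was 3 nM replicate 1, in which the rRNA precursor gene Rn45s took 10.5% of counts against up to 19.4% elsewhere. Pluripotency genes were high, with Pou5f1 at 580 ± 22 RPKM and Nanog at 232 ± 2.6 RPKM in DMSO cells (SD, n = 2). Smarca4, which encodes BRG1, had log2 differences between -0.01 and 0.08 from 0 nM over the 5 doses, with adjusted p-values of 0.465 or more by edgeR's quasi-likelihood test. The degron acts on the protein, so this transcript does not check the labels.

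The 3 clusters differed widely in level. In DMSO cells the gamma genes together stood at 1.38 ± 0.0036 RPKM, the beta genes at 0.0514 ± 0.013 RPKM and the 11 countable alpha genes at 0.0254 ± 0.00094 RPKM (SD, n = 2). The alpha value rests on 4 and 4 counts. Here and below, an SD of 2 libraries that is smaller than counting error, as for alpha and gamma here, does not measure the spread. Gamma genes took 93.7 and 95.3% of all clustered protocadherin counts in the 2 libraries in DMSO cells, and 79.8 and 85.4% at 100 nM. The rest of the counts at 100 nM were 14.2 and 10.3% from beta genes and 6.06 and 4.33% from alpha genes. Over all 12 libraries the alpha cluster gave 128 counts, the beta cluster 393 and the gamma cluster 4656, and each of the 11 alpha and 22 beta genes that had counts was at or under the limit of detection in 8 or more of the 12 libraries. Of the 22 gamma genes, 12 were above it in every library and 10 were at or under it in at least 1, up to 9 libraries for Pcdhga6.

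No clustered protocadherin passed the test at any dose. A call needed both an adjusted p below 0.05 (Benjamini-Hochberg over all 23204 genes with at least 1 count, edgeR's quasi-likelihood test) and a fold change beyond 1.5 in either direction. At 0.3 nM, 0 of 55 members were called, where 0.00431% of all genes were called higher and 0.0388% lower. At 1 nM, 0 of 55 were called beside 0.138% higher and 0.474% lower among all genes. At 3 nM the count was 0 of 55 beside 0.75% and 1.72%, and at 10 nM it was 0 of 55 beside 1.7% and 3.14%. At 100 nM it was 0 of 55 beside 3.37% higher and 4.62% lower. Between 3 and 0.3 nM it was 0 of 55 beside 0.414% higher and 0.965% lower. At an unadjusted p under 0.05, 0 members were higher at the doses from 0.3 to 10 nM, where 2.28, 3.56, 5.22 and 7.86% of all genes were, in order of dose. The number lower was 2, 3, 2 and 2, beside 3.33, 5.17, 8.92 and 10.7% of all genes. At 100 nM, 5 were higher (10.8% of all genes were) and 1 was lower (13.8% of all genes were). Between 3 and 0.3 nM, 2 were higher (5.15% of all genes) and 2 lower (7.69%). DESeq2 called 0 members in each of these comparisons, but it gave an adjusted p to only 0, 1, 7, 13 and 20 of them at the 5 doses in order and to 4 between 3 and 0.3 nM. The likelihood ratio test, which the study's methods name, called 3 of 55 members higher and 0 lower at 100 nM, beside 4.67% and 4.71% of all genes. These were Pcdha11, Pcdhb17 and Pcdhb20, which had 0 to 1 counts per library in DMSO cells and 2 to 11 at 100 nM. A test of the 5 doses together called 1 member, Pcdhgc3, where 15.5% of all genes were called.

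**Figure D1:**
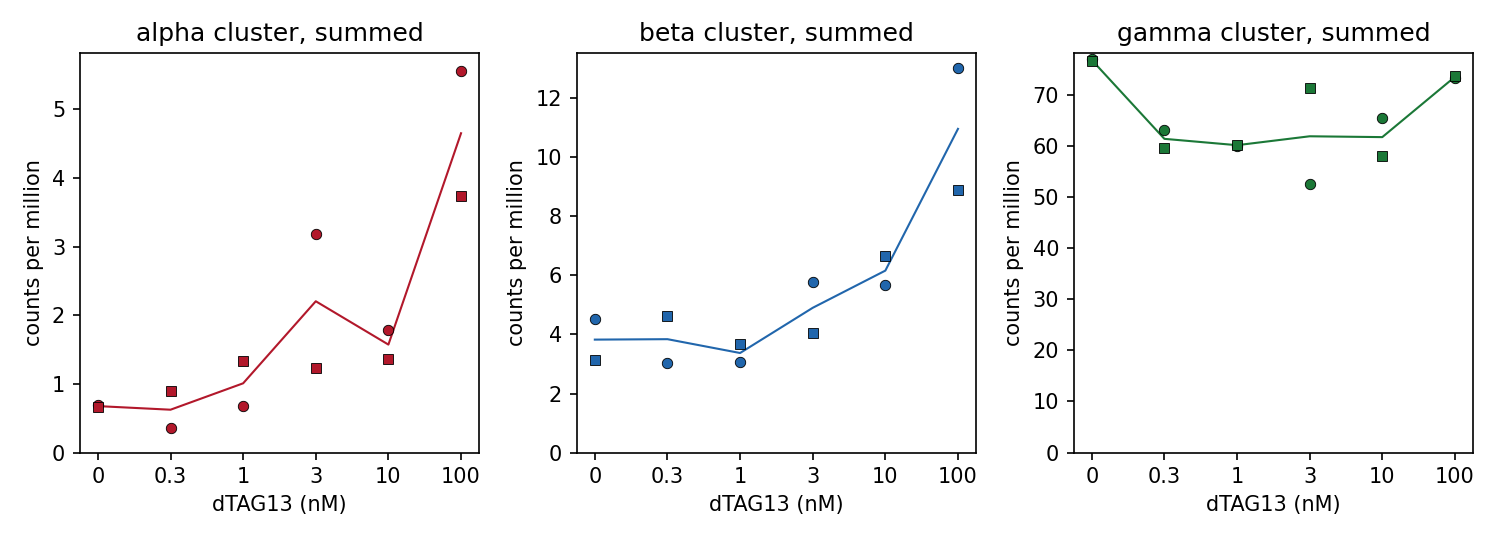
Summed CPM of the alpha, beta and gamma genes (linear vertical axes from 0, separate scales) against dTAG13 dose in nM (evenly spaced categories). Circles are replicate 1, squares replicate 2, and lines join condition means. Alpha reached 3.74 and 5.56 CPM and beta 8.89 and 13.03 CPM at 100 nM, while gamma was near 60 to 62 CPM on average from 0.3 to 10 nM and near its 0 nM level at 100 nM.

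The 11 countable alpha genes had few counts on their own exon bases without dTAG13. Their summed counts were 4 and 4 in DMSO cells, 2 and 5 with 0.3 nM, 4 and 8 with 1 nM, 16 and 7 with 3 nM, 11 and 8 with 10 nM, and 35 and 24 with 100 nM. A count of 4 has an exact 95% Poisson interval of 1.09 to 10.2, and a count of 35 one of 24.4 to 48.7, both for counting error only. Both 100 nM libraries lay above every other library, both libraries at 3 and at 10 nM lay above both DMSO ones, and those at 0.3 and 1 nM overlapped them. The sum was 0.677 ± 0.025 CPM in DMSO cells and 4.65 ± 1.3 CPM at 100 nM (SD, n = 2), a log2 fold change of 2.74 (SE 0.54). At 3 nM the log2 fold change was 1.64 (SE 0.63), and without replicate 1, the library with the fewest counts, it was 0.87.

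Each alpha gene added only a few counts. Pcdhac2, a C-type gene and the alpha gene with the highest mean level, had 2 and 0 counts in DMSO cells and 5 and 3 at 100 nM. Pcdhac1, the other alpha C-type gene, had 1 and 1 counts in DMSO cells and 3 and 4 at 100 nM. Both C-type genes were at 0 in both 0.3 nM libraries. Among the other alpha genes with high mean levels, Pcdha11 had 0 and 0 counts in DMSO cells and 3 and 5 at 100 nM. Pcdha2 went from 1 and 0 counts to 2 and 3, and Pcdha5 from 0 and 1 to 3 and 1. Pcdha10 and Pcdha12, named after their values were seen because their unadjusted p was under 0.05 at 100 nM, had no count in either 0 nM library, and 3 and 4 and 6 and 1 counts at 100 nM. Folds are not given, since the 0 nM libraries of all 11 countable genes were at or under the limit of detection. The number of alpha genes with a count was 3 and 4 in DMSO cells and 11 and 9 at 100 nM.

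The beta genes started a little higher than the alpha genes, and their fold at 100 nM was smaller. Their summed counts were 26 and 19 in DMSO cells, 17 and 26 with 0.3 nM, 18 and 22 with 1 nM, 29 and 23 with 3 nM, 35 and 39 with 10 nM, and 82 and 57 with 100 nM. In CPM the sum was 3.82 ± 0.98 in DMSO cells, 6.16 ± 0.69 at 10 nM and 10.96 ± 2.9 at 100 nM (SD, n = 2). Both 10 nM libraries and both 100 nM libraries lay above the 0 nM libraries, and the lower 3 doses overlapped them. The log2 fold change of the sum was 0.01 (SE 0.34) at 0.3 nM, -0.17 (SE 0.35) at 1 nM and 0.35 (SE 0.33) at 3 nM. It was 0.69 (SE 0.31) at 10 nM and 1.52 (SE 0.28) at 100 nM.

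The higher beta sum was spread over the cluster. Counts were found for 15 and 13 of the 22 beta genes in DMSO cells and for 22 and 22 at 100 nM. Pcdhb22, the beta gene with the highest mean level, had 1 and 2 counts in DMSO cells and 5 and 7 at 100 nM. Pcdhb17 had 0 and 1 counts in DMSO cells and 11 and 2 at 100 nM. Pcdhb14 had 4 and 0 counts in DMSO cells and 4 and 3 at 100 nM, and its 2 groups overlapped. Pcdhb6 had 2 and 0 against 2 and 2, and Pcdhb2 had 2 and 0 against 2 and 1. Pcdhb20, named after its values were seen, had no count in DMSO cells and 2 and 6 at 100 nM. Both libraries at 100 nM lay above both in DMSO cells, on the CPM scale, in 7 of 11 alpha genes and in 12 of 22 beta genes, and in 0 of either cluster did both lie below. Over all genes 27.8% lay above and 23.4% below, and among the 7991 genes with no more than 30 counts in all, the highest total of an alpha or beta gene, 27.4% lay above and 4.3% below. That set also holds genes with fewer counts than any tested alpha or beta gene, so its shares are not matched to theirs in depth. Its median log2 fold change at 100 nM was 1.28, beside a median of 1.31 over the beta genes and 1.98 over the tested alpha genes. These medians are taken over single-gene values near the limit of detection, in sets of unlike depth, so they cannot be compared closely.

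**Figure D2:**
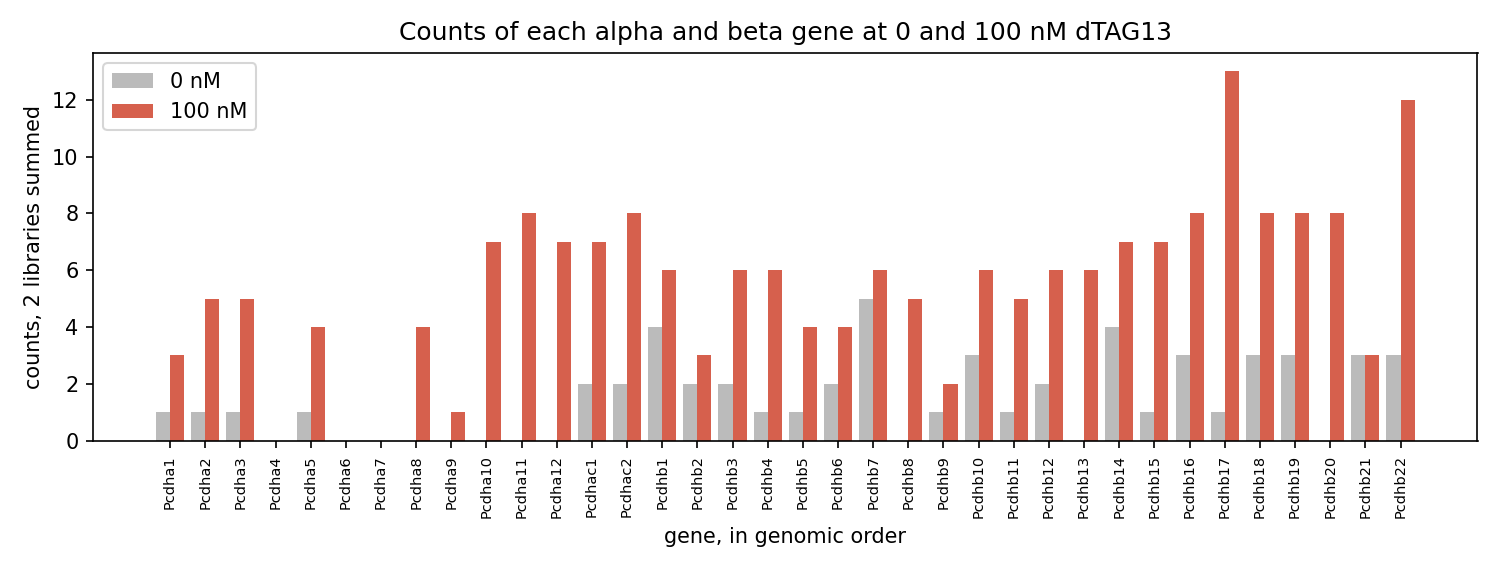
Counts of each alpha and beta gene summed over the 2 libraries at 0 nM (grey) and at 100 nM (red), with genes in genomic order on the horizontal axis and counts from 0 on the vertical axis. No gene had more than 5 counts at 0 nM and none had more than 13 at 100 nM, and Pcdha4, Pcdha6 and Pcdha7 could not be counted.

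The summed levels of the olfactory and vomeronasal receptor families, which detect odours and pheromones in sensory neurons, were also higher at 100 nM, without a test of the sums. As single genes, 0 of 1012 tested olfactory and 0 of 260 tested vomeronasal receptor genes were called by edgeR's quasi-likelihood test, and at an unadjusted p under 0.05 the counts were 4 and 2 higher and 0 lower. The likelihood ratio test called 3 and 1 higher, and DESeq2 called 0 of the 3 and 1 to which it gave an adjusted p. These families were chosen after the data were seen, as large sets of genes used in sensory neurons, to give a level of background reads. Whether their reads are background was not tested. The 1088 olfactory receptor genes with exon bases of their own stood together at 0.0515 ± 0.0047 RPKM in DMSO cells and 0.133 ± 0.00058 RPKM at 100 nM (SD, n = 2), a ratio of 2.59. The 304 vomeronasal receptor genes went from 0.0345 ± 0.0013 to 0.0886 ± 0.0029 RPKM, a ratio of 2.57. The beta genes went from 0.0514 to 0.147 RPKM, a ratio of 2.87. Relative to the olfactory receptor genes of the same library, the beta level was on average 0.991 in DMSO cells, 1.21 with 0.3 nM, 0.911 with 1 nM, 1.02 with 3 nM, 1.07 with 10 nM and 1.11 with 100 nM. With counts expressed relative to the olfactory receptor sum, the log2 fold change of the beta sum at 100 nM was 0.16 in place of 1.52.

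At 100 nM the alpha sum differed by more than the receptors, without a test of the difference. The alpha level relative to the olfactory receptors was 0.476 and 0.514 in the 0 nM libraries and 1.05 and 1.57 in the 100 nM libraries, and the log2 fold change on this scale was 1.41 in place of 2.74. The 100 nM value rests on 8 alpha counts in DMSO cells and 59 at 100 nM. With 0.3, 1, 3 and 10 nM the alpha ratio was on average 0.550, 0.768, 1.28 and 0.755, so it did not rise steadily with dose. The 3 nM libraries stood at 1.83 and 0.726, and 1 nM replicate 2 at 1.04, near the lower 100 nM library. The gamma level was 26.9 ± 2.4 times that of the olfactory receptors in DMSO cells and 9.92 ± 0.0072 times at 100 nM (SD, n = 2). Reads from either strand were counted, and unspliced or antisense RNA cannot be told apart from mature sense transcripts in these counts. What part such RNA has in the alpha and beta values was not tested.

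**Figure D3:**
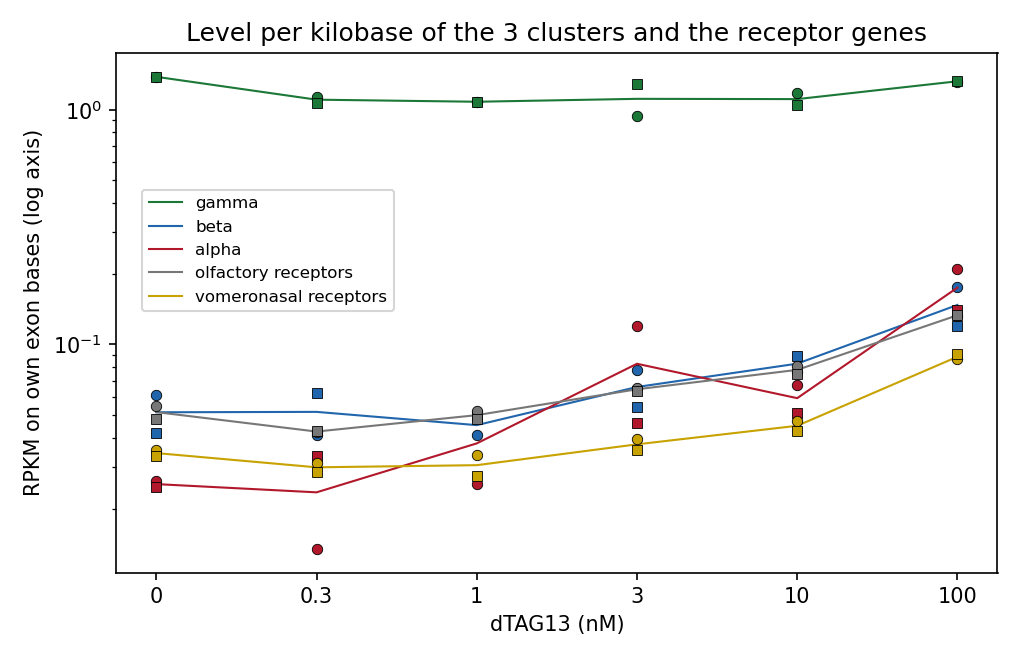
Level of the 3 protocadherin clusters and of the olfactory and vomeronasal receptor genes, as RPKM over own exon bases (log vertical axis), against dTAG13 dose in nM (evenly spaced categories). Circles are replicate 1, squares replicate 2, and lines join condition means. The beta and olfactory receptor lines run together from 0.0514 and 0.0515 RPKM at 0 nM to 0.147 and 0.133 RPKM at 100 nM, with gamma far above both.

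The gamma genes held nearly all counts of the DMSO cells, and their sum was lower from 0.3 to 10 nM. Their summed counts were 443 and 465 in DMSO cells, 352 and 335 with 0.3 nM, 353 and 360 with 1 nM, 264 and 406 with 3 nM, 404 and 340 with 10 nM, and 461 and 473 with 100 nM. In CPM the sum was 76.8 ± 0.20 in DMSO cells, 61.4 ± 2.4 with 0.3 nM, 60.1 ± 0.094 with 1 nM, 61.9 ± 13 with 3 nM, 61.7 ± 5.3 with 10 nM and 73.5 ± 0.37 with 100 nM (SD, n = 2). The smallest of these SDs are below counting error and do not measure the spread. A count of 443 has an exact 95% Poisson interval of 403 to 486, and a count of 353 one of 317 to 392. After TMM, with factors of 0.948 and 0.981 at 0 nM and 1.05 and 1.05 at 100 nM, all 10 treated libraries lay below both 0 nM libraries. Those at 100 nM lay above the other treated libraries. The position of the 100 nM libraries depended on the scaling: per total count without TMM factors, both lay above both 0 nM libraries. The libraries from 0.3 to 10 nM lay below both 0 nM libraries on either scale. The log2 fold change after TMM was -0.32 with 0.3 nM, -0.35 with 1 nM, -0.31 with 3 nM and -0.31 with 10 nM, each with an SE of 0.10, and -0.06 (SE 0.099) with 100 nM. The 3 nM value rested on replicate 1, which had the fewest counts, and was -0.08 without it.

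Pcdhgc3 alone supplied 39.4 ± 3.0% of the gamma counts in DMSO cells and 41.7 ± 1.1% at 100 nM (SD, n = 2). It is the first of the 3 gamma C-type genes and lies at chr18:37806410-37841872. Its mean level over the 12 libraries was 10.0 RPKM over own exon bases, between 7.09 and 12.4 in single libraries. The next 3 gamma genes were Pcdhga1 at 1.98 RPKM, Pcdhga11 at 1.85 RPKM and Pcdhga12 at 1.83 RPKM, whose ranges over the libraries overlapped one another. Pcdhgb8 followed at 0.957 RPKM, and the other C-type genes Pcdhgc4 and Pcdhgc5 stood at 0.785 and 0.652 RPKM. The lowest gamma gene, Pcdhga6, was at 0.224 RPKM.

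**Figure D4:**
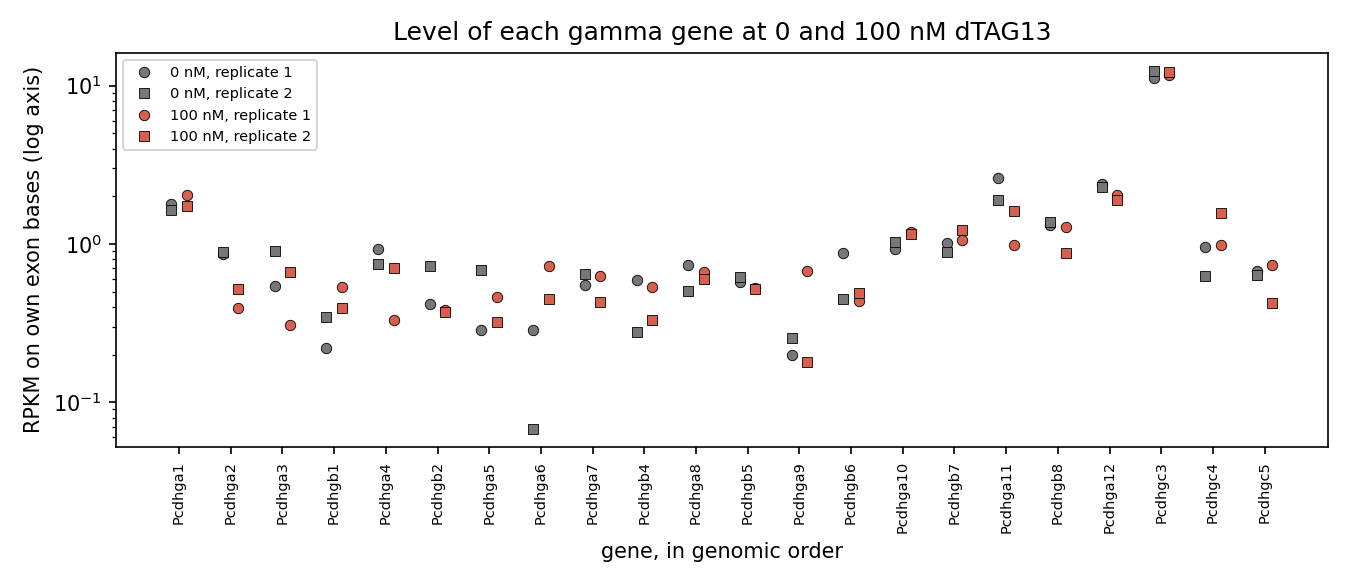
Level of each of the 22 gamma genes at 0 nM (grey) and 100 nM (red), in genomic order on the horizontal axis and as RPKM over own exon bases on a log vertical axis. Circles are replicate 1 and squares replicate 2. Pcdhgc3 stands above 10 RPKM in all 4 libraries and every other gamma gene lies under 3 RPKM.

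Pcdhgc3 was lower at 1 nM by its adjusted p, short of the fold required for a call, and at 100 nM its counts overlapped those of DMSO cells. Its counts were 165 and 193 in DMSO cells, 120 and 111 with 0.3 nM, 107 and 136 with 1 nM, 122 and 169 with 3 nM, 160 and 142 with 10 nM, and 189 and 201 with 100 nM. In CPM, both libraries at 0.3, 1 and 10 nM lay below both in DMSO cells, and the libraries at 3 and 100 nM overlapped those in DMSO cells. At 1 nM the log2 fold change was -0.56 (SE 0.15, adjusted p = 0.0182, edgeR's quasi-likelihood test), where 0.918% of all genes were lower at an adjusted p under 0.05 with no fold minimum. The adjusted p missed the threshold under DESeq2 (0.217), with no normalization factors (0.0516) and in a pairwise fit (0.130), and without 0 nM replicate 2 (0.386) or 1 nM replicate 1 (0.575). At 0.3 nM the log2 fold change was -0.55 (SE 0.15, adjusted p = 0.0903).

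At the higher doses the differences of Pcdhgc3 from 0 nM were smaller. The log2 fold change was -0.16 (SE 0.15, adjusted p = 0.731) at 3 nM and -0.27 (SE 0.14, adjusted p = 0.309) at 10 nM. At 100 nM it was 0.02 (SE 0.14, adjusted p = 0.983). The quasi-likelihood test over the 5 doses together gave an adjusted p of 0.00026, and between 2.3e-05 and 0.00845 under 20 alternative settings. Between 100 and 1 nM, a comparison added after the values were seen, Pcdhgc3 was higher at 100 nM by 0.58 on the log2 scale (SE 0.15, adjusted p = 0.00192), where 3.12% of all genes were higher at an adjusted p under 0.05. Between 3 and 0.3 nM it differed by 0.39 (SE 0.16, adjusted p = 0.173).

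**Figure D5:**
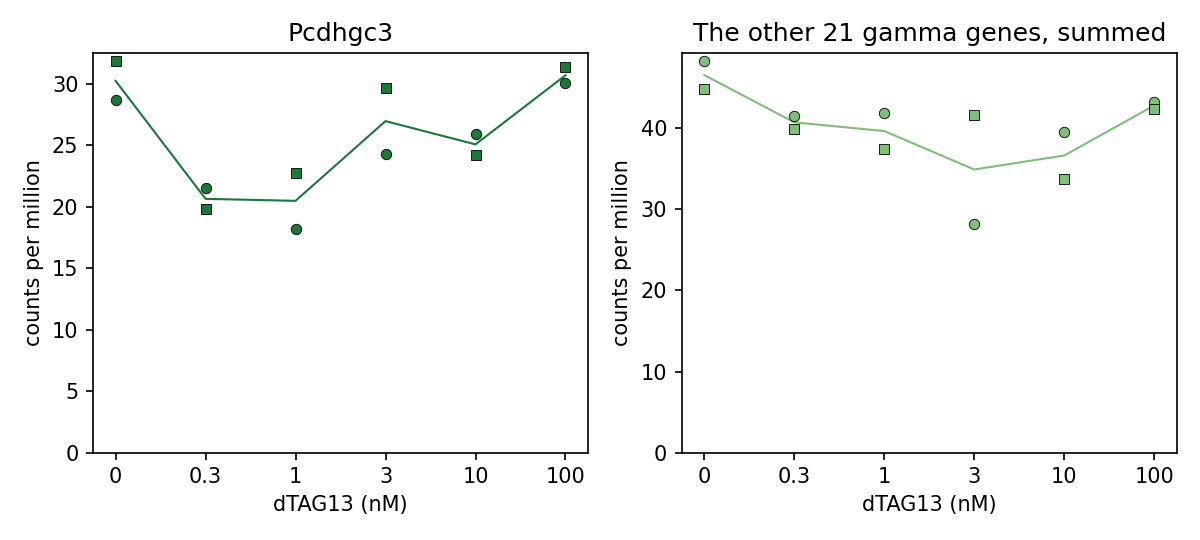
CPM of Pcdhgc3 (left) and of the other 21 gamma genes summed (right), with linear vertical axes from 0, against dTAG13 dose in nM (evenly spaced categories). Circles are replicate 1, squares replicate 2, and lines join condition means. Pcdhgc3 was at 28.7 and 31.8 CPM at 0 nM, 18.2 and 22.7 CPM at 1 nM and 30.03 and 31.4 CPM at 100 nM.

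The other 21 gamma genes together had their lowest mean at 3 nM, which rested on replicate 1, the library with the fewest counts, at 28.2 CPM. Replicate 2 of that dose was at 41.6 CPM, above the means at 0.3, 1 and 10 nM. Their sum was 46.6 ± 2.4 CPM in DMSO cells, 40.7 ± 1.2 with 0.3 nM, 39.7 ± 3.1 with 1 nM, 34.9 ± 9.5 with 3 nM, 36.7 ± 4.1 with 10 nM and 42.8 ± 0.56 with 100 nM (SD, n = 2). All 10 treated libraries were again below both 0 nM libraries after TMM, while per total count without TMM factors the 100 nM libraries overlapped them. The 12 A-type genes, whose 3 nM libraries stood at 17.9 and 25.6 CPM, went from 30.6 ± 1.1 CPM in DMSO cells to 21.8 ± 5.5 at 3 nM and 26.7 ± 0.24 at 100 nM. The 7 B-type genes went from 11.9 ± 0.56 CPM in DMSO cells to 8.61 ± 1.8 at 1 nM and 10.9 ± 0.92 at 100 nM.

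Among single gamma genes, both libraries lay below both 0 nM libraries in 5 of 22 at 0.3 nM (15% of all genes), 8 at 1 nM (18%), 5 at 3 nM (19.8%) and 9 at 10 nM (21.1%). Both lay above in 2 of 22 at 0.3 nM (14.8% of all genes), 0 at 1 nM (15.2%), 0 at 3 nM (18.3%) and 2 at 10 nM (20.7%). At 100 nM, 5 of 22 lay above (27.8% of all genes) and 7 below (23.4%), and the median log2 fold change was -0.18 beside 0.09 over all genes tested. Pcdhga11 had 39 and 30 counts in DMSO cells and 16 and 27 at 100 nM, and differed by -0.78 on the log2 scale (SE 0.32, adjusted p = 0.0875). Pcdhga12 had 41 and 41 counts in DMSO cells, 16 and 25 with 3 nM and 38 and 36 with 100 nM, with adjusted p = 0.0881 at the 3 nM dose for a log2 fold change of -0.86 (SE 0.31). Pcdhga1 had 25 and 24 counts in DMSO cells and 31 and 27 at 100 nM, and differed by 0.14 on the log2 scale (SE 0.33). Pcdhgb8 had 19 and 21 against 20 and 14, a log2 fold change of -0.34 (SE 0.40).

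The C-type genes after Pcdhgc3 were too low for a firm statement. Pcdhgc4 had 16 and 11 counts in DMSO cells, 11 and 6 with 10 nM and 18 and 29 with 100 nM. The last differed from DMSO cells by 0.69 on the log2 scale (SE 0.41, adjusted p = 0.309). Pcdhgc5 had 10 and 10 counts in DMSO cells and 12 and 7 at 100 nM, and differed by -0.17 on the log2 scale (SE 0.55, adjusted p = 0.895). With an SE of this size, a change of the order of 1.5-fold was not detectable in single gamma genes other than Pcdhgc3.

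Of 25 regulators of cluster architecture and methylation, 0 were called higher and 1 lower at 100 nM, beside 3.37% and 4.62% of all genes, with a median log2 fold change of -0.13. The gene called was Dnmt3a, a de novo DNA methyltransferase, with 519 and 559 counts in DMSO cells and 366 and 375 at 100 nM, and fell by 0.64 on the log2 scale (SE 0.098, adjusted p = 2.4e-09). Its fold is near the minimum of 1.5, and it was not called after upper quartile scaling, with no factors or under the 1 RPKM filter. Ctcf, which binds protocadherin promoters and their enhancers, had a log2 fold change of -0.12 (adjusted p = 0.296). Smchd1, a repressor of the clusters in other cells, had one of -0.04 (adjusted p = 0.826). Of 35 tested genes within 500 kb of the clusters, 0 were called higher and 2 lower, beside the same 3.37% and 4.62%, with a median of -0.06. These were Vaultrc5, a vault RNA gene, at -0.98 (SE 0.077) and Hbegf, an EGF family growth factor, at -0.68 (SE 0.22), and by DESeq2 only Vaultrc5 was called.

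Of 12 protocadherins outside the clusters, 1 was called higher and 0 lower at 100 nM, beside 3.37% and 4.62% of all genes. Pcdh15, a protein of the hair cell tip link, had 0 and 4 counts in DMSO cells and 17 and 15 at 100 nM, and rose by 2.82 on the log2 scale (SE 0.77, adjusted p = 0.00293). It was not called by DESeq2, under the 1 RPKM filter or without 0 nM replicate 1. The summed level of the 12 genes was 7.12 to 9.07 CPM in DMSO cells and 17.8 to 18.7 CPM at 100 nM. Of 26 other cadherin superfamily genes, 6 were called higher and 2 lower, beside 3.37% and 4.62% of all genes, and by DESeq2 2 higher and 1 lower. Cdh3, which encodes P-cadherin, had 119 and 136 counts in DMSO cells and 358 and 328 at 100 nM, and rose by 1.32 on the log2 scale (SE 0.13). Celsr2, a seven-pass cadherin, rose by 1.33 on the log2 scale (SE 0.18). Fat1, a giant atypical cadherin, fell by 1.20 on the log2 scale (SE 0.058), and Celsr3, also a seven-pass cadherin, fell by 0.70 (SE 0.19). Cdh15 and Cdh5, the cadherins of muscle and endothelium, were called with 5 and 1 and 2 and 3 counts in DMSO cells, and 14 and 15 and 13 and 13 at 100 nM. The other genes called higher were Cdh24 and Dchs1.

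Of 20 genes for cytoplasmic partners and processing of protocadherins, 1 was called higher and 3 lower at 100 nM, beside 3.37% and 4.62% of all genes. The receptor kinase gene Ret rose by 1.45 on the log2 scale (SE 0.41). The kinase genes Ptk2b and Fyn fell by 0.82 (SE 0.25) and 0.69 (SE 0.21), and Marcks, a membrane-bound actin regulator, fell by 2.30 (SE 0.19). By DESeq2 only Marcks was called.

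Some markers of other cell types also moved, with calls at 100 nM unless another dose is named. Among all genes, 3.37% were called higher and 4.62% lower at 100 nM. Of 12 neural markers, 3 were called higher and 0 lower, and their summed level was 225 to 235 CPM in DMSO cells and 277 to 285 CPM at 100 nM. These changes were not particular to 100 nM, since 2 were called higher at 3 nM (0.75% of all genes) and 3 at 10 nM (1.7%). The neural sum at 10 nM was 273 to 274 CPM. Pax6 had 1 and 2 counts in DMSO cells and 28 and 28 at 100 nM, while Nes and Tubb3 rose by 1.37 (SE 0.16) and 0.79 (SE 0.098) on the log2 scale. Neurog2, a transcription factor gene of neural progenitors, had 1 and 0 counts in DMSO cells and 0 and 0 at 100 nM. Of 6 trophectoderm markers, Cdx2 was called higher and Krt8 lower, and the sum was 58.5 to 62.4 CPM in DMSO cells and 61.1 to 61.2 CPM at 100 nM. Of 10 fibroblast markers only Pdgfrb was called, lower and not under DESeq2 or another scaling, and the sum was 7.26 to 8.51 CPM in DMSO cells and 7.80 to 11.4 CPM at 100 nM. Of 6 endoderm markers none was called, and the sum was 5.44 to 6.25 CPM in DMSO cells and 5.72 to 5.93 CPM at 100 nM. Of 10 pluripotency genes 1, Tfcp2l1, was called lower, and the sum was 4138 to 4241 CPM in DMSO cells and 3810 to 3861 CPM at 100 nM. The part of other cell types in the protocadherin values was not tested, and in bulk samples more cells of a type and more RNA per cell cannot be told apart.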

How the data were processed

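RNA-seq counts were analysed for 12 libraries of BRG1-dTAG mES cells. The authors deposited raw counts of read pairs per gene, with gene coordinates and exon lengths. Per the file headers they were made with featureCounts 2.0.1 on exons by gene, with both ends aligned, without multi-mapped pairs, without pairs on exons of more than 1 gene and without use of strand. HISAT2, Trim Galore and mm10 are named in the submitters' processing notes, with no versions. The library kit was stranded. The columns of the authors' table all belonged to these 12 libraries.

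Own exon bases were those no other gene of the table covered. R 4.3.3 was used with edgeR 4.0.16 and limma 3.58.1. The 6 conditions were fitted together on the 23204 genes with at least 1 count, with TMM factors of 0.938 to 1.08, and compared by the quasi-likelihood test with Benjamini-Hochberg adjustment, calling an adjusted p under 0.05 and a fold over 1.5. The biological coefficient of variation was 6.28%. The study's filter of 1 RPKM was an alternative, since it removes all alpha and beta genes. Of the gamma genes it leaves only Pcdhga1, Pcdhga11, Pcdhga12 and Pcdhgc3. Other alternatives were the likelihood ratio test, DESeq2 1.42.0, other scalings, a replicate block and leaving out each library. Cluster sums were added to the same fit to give a log2 fold change and SE, and no p-value is given for them. Each SE, for genes and sums, is the absolute log2 fold change divided by the square root of the quasi-likelihood F statistic. The reads carried no molecular identifiers, so intervals and limits of detection hold for counting error alone. The fits were tested on simulated data in which only genes with more counts than any alpha or beta gene were changed. That test therefore does not cover changes in genes as low as the alpha and beta genes.

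Members named by rule were those called at any dose, the 5 with the highest level per cluster and the C-type genes. Pcdha10, Pcdha12, Pcdhb20 and Pcdhga6 were named outside this rule, as were Pcdha4, Pcdha6 and Pcdha7, which could not be counted. For other lists, all genes called at 100 nM were named. Pou5f1, Nanog, Ctcf, Smchd1 and Neurog2 were named without being called. Members and lists were chosen with earlier results of these data known. Promoter motifs were not analysed here.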

Additional observations from a re-analysis of the deposited data

How the results depend on the processing

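Calls of members were few under every setting tried. With no fold minimum, 1 member was lower at 1 nM (Pcdhgc3), and the likelihood ratio test gave 3 higher at 100 nM. Without each library in turn, 0 to 1 members were lower at 1 nM, with 1 when 0 nM replicate 1 or 1 nM replicate 2 was left out, and 0 in the other comparisons. No pairing of the libraries by replicate number was detected: over 11850 genes, the replicate differences of 15 pairs of conditions correlated between -0.10 and 0.10, with 0 over 0.1. Such correlations cannot exclude that libraries of the same replicate number were handled together. With the replicate block, 0 members were called at any dose and Pcdhgc3 kept an adjusted p of 0.0185 at 1 nM and 0.00029 over the doses. Labels number the libraries S1 to S8 at 0, 1, 10 and 100 nM and S3 to S6 at 0.3 and 3 nM. In a fit of only the 8 libraries of 0, 1, 10 and 100 nM the adjusted p of Pcdhgc3 at 1 nM was 0.0163.

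Relative to the olfactory receptor sum, a scale chosen after seeing the data, the log2 fold change at 100 nM was 1.41 for alpha, 0.16 for beta and -1.44 for gamma. On this scale beta was 0.11 at 10 nM and turned to -0.25 between 3 and 0.3 nM, and gamma was -0.054 at 0.3 nM, -0.64 at 3 nM, -0.92 at 10 nM and -0.58 between 3 and 0.3 nM. Without Pcdhgc3, the gamma sum differed by -0.21 between 3 and 0.3 nM. Without each library in turn, alpha ranged from -0.88 to 0.39 at 0.3 nM, from 0.87 to 2.20 at 3 nM and from 0.97 to 2.54 between 3 and 0.3 nM. Beta ranged from -0.32 to 0.29 at 0.3 nM and from 0.082 to 0.69 between 3 and 0.3 nM, and gamma from -0.54 to -0.078 at 3 nM and from -0.22 to 0.24 between 3 and 0.3 nM. At 100 nM the ranges were 2.44 to 3.00 for alpha, 1.23 to 1.80 for beta and -0.07 to -0.05 for gamma. The sign of Pcdhgc3 changed within -0.31 to 0.0015 at 3 nM and -0.054 to 0.11 at 100 nM, and that of Pcdhgc5 within -0.61 to 0.17. The cause of these shifts was not tested.

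At 100 nM DESeq2 called 2 other cadherins higher and 1 lower, 0 cytoplasmic partners higher and 1 lower, 1 neighbour lower, and 0 non-clustered protocadherins and 0 fibroblast markers. The likelihood ratio test called 2 non-clustered protocadherins higher. DESeq2 size factors and the minimum of 10 counts called 0 fibroblast markers. Upper quartile and no scaling factors each called 0 regulators and 0 fibroblast markers lower, 1 neighbour and 1 other cadherin lower, and 2 partners higher. The 1 RPKM filter called 0 regulators, 0 fibroblast markers, 0 partners higher, 0 non-clustered protocadherins and 2 other cadherins higher. Without each library in turn, 2 to 8 other cadherins were higher and 1 to 2 lower, 0 to 1 partners higher and 1 to 3 lower, 1 to 2 neighbours lower, 0 to 1 non-clustered protocadherins higher, 0 to 1 fibroblast markers in either direction and 0 to 1 endoderm markers lower. Depth limits single alpha and beta genes, for which no fold is given.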
